A study of Mus musculus with 2 samples.

Results

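A set of 10 genes that are widely used to describe reactive astrocytes, Gfap, Vim, Nes, Serpina3n, Lcn2, Cd44, Thbs4, S100a6, S100b and Hopx, were followed through single-cell RNA sequencing of mouse brain. They were taken by gene symbol, and all of them were found among the 32285 genes of the count matrices. The brains came from female mice aged 11 to 12 months that were homozygous for the human E3 or E4 allele of APOE. For each genotype the right hemispheres of 3 perfused mice, without brainstem and cerebellum, were pooled, dissociated enzymatically and loaded as 1 library, so the 2 groups (E3 and E4) hold 1 library each. There is therefore no replicate and no test of genotype, and genotype cannot be told apart from the pool of mice, the library or the software version behind it. The intervals given below are exact 95% intervals that cover counting error only.

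Barcodes had medians of 3784 (E3) and 4085 (E4) unique molecular identifiers (UMIs, 1 for each captured transcript). The study's limits on UMIs and mitochondrial share, applied here, left 11288 E3 and 13528 E4 cells. The study also removed small clusters of suspected doublets, which was not done here, so these are not its own cell counts. Of 25241 different barcodes, 46 occurred in both libraries. Astrocytes were taken as cells with at least 10 UMIs of the astrocyte markers Aldoc, Aqp4 and Gja1 together and fewer than 5 UMIs of the microglial genes C1qa, C1qb and C1qc. This gate held 3093 E3 cells (27.4%) and 3685 E4 cells (27.2%), with medians of 4320 and 4193 UMIs. Gated cells also carried the markers that the gate did not use: Slc1a2 was found in 98.9% of them in both libraries, Ntsr2 in 93.0% and 93.4%, and Gjb6 in 79.5% and 84.7%.

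Astrocytes are the glial cells that buffer ions and glutamate and contact blood vessels, and after injury or in neurodegeneration many of them enlarge and raise intermediate filament genes, a response called reactive astrogliosis. Gfap, Vim and Nes encode intermediate filament proteins, Serpina3n and Lcn2 encode secreted acute-phase proteins, Cd44 a receptor for hyaluronan and Thbs4 a thrombospondin of the extracellular matrix. S100a6 and S100b encode calcium-binding proteins, and Hopx an atypical homeodomain protein found in astrocytes and in neural stem cells. Signalling through the kinase JAK and the transcription factor STAT3 is a known activator of Gfap.

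The sequences around the starts of Gfap and Vim are shown. Inside the astrocyte gate, though not over all cells, these genes gave the most UMIs among the filament genes. Each also holds 1 of the 3 motifs that were searched. The windows are 120 bases before and 20 after the RefSeq start on GRCm38.p6, written 5′ to 3′ on the strand of the gene, Gfap from chr11:102897181-102897320 (minus strand) and Vim from chr2:13574191-13574330 (plus strand). Capitals mark TTCNNNGAA, the form of site that STAT proteins bind, in Gfap and the TATA box form TATAAA in Vim.
Gfap: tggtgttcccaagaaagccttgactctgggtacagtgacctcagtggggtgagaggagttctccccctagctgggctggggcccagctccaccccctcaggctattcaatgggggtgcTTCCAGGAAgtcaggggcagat
Vim: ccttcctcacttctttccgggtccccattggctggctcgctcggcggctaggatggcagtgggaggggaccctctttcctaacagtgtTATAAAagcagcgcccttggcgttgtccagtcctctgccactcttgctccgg
Both strands of the 300-base RefSeq promoters of all 10 genes were searched, which gave 11 promoters because Hopx has 2, and TGANTCA, the third motif, was found in none of them. Of all 32851 promoters, 8.30% held TTCNNNGAA, 7.81% TGANTCA and 13.6% TATAAA. A match describes the letters only.

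Across the whole suspension, 7 of the 10 genes were at least 2-fold higher in gated astrocytes than in all other cells in both libraries, where 19% of the 16277 genes tested were. These were Gfap, Serpina3n, Cd44, Thbs4, S100a6, S100b and Hopx. Thbs4 was 20.01-fold higher in the gate in E3 and 9.88-fold in E4, and Gfap 10.01-fold and 5.75-fold. Vim was level between the gate and the rest, with 1.22-fold and 0.916-fold, and Nes was lower in the gate, at 0.265-fold and 0.199-fold. Clusters of all cells, formed without the 10 genes, gave 12 groups with at least 50 cells in each library, named from markers of their type, and levels are given as CPM, the UMIs of a gene per 1000000 UMIs of a group. Because 3′ counts are not scaled to length, a level of one gene is compared between groups and never with that of another gene.

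The 3 filament genes had 3 different main sources. Gfap (ENSMUSG00000020932, chr11:102887336-102900912) peaked in astrocyte-like cells, with 208 CPM (E3) and 122 CPM (E4). The next group in E3 was macrophage-like cells at 70.4 CPM, but 28 of their 29 Gfap UMIs came from 1 cell, and in E4 these cells held none. Ependymal-like cells followed with 53.2 and 35.5 CPM, which made them second in E4. Vim (ENSMUSG00000026728, chr2:13573927-13582826) stood at 69.1 and 58.1 CPM in astrocyte-like cells, seventh and eighth of the 12 groups. Its level was 1331 and 1036 CPM in ependymal-like cells, 967 and 1097 CPM in mural-like cells and 837 and 808 CPM in endothelial-like cells, and ependymal-like and mural-like cells changed places between the libraries. Nes (ENSMUSG00000004891, chr3:87971078-87980451) was highest in endothelial-like cells at 367 and 400 CPM, 3.25-fold and 3.26-fold over mural-like cells, and reached 74.7 and 62.8 CPM in ependymal-like cells. In astrocyte-like cells Nes gave 2.12 and 1.85 CPM, below the 2.89 and 4.33 CPM of microglia-like cells, a type that should lack it. The source of the few Nes UMIs in astrocyte-like cells was not tested.

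The acute-phase genes were scarce. Serpina3n (ENSMUSG00000021091, chr12:104406729-104414329), a protease inhibitor with near-identical neighbouring copies whose reads the counting could have split, peaked in astrocyte-like cells (8.35 and 8.51 CPM), ahead of oligodendrocyte-like cells (6.74 and 4.41 CPM). Lcn2 (ENSMUSG00000026822, chr2:32384633-32388252), which encodes lipocalin-2, had no UMI in the 3756 E3 and 4202 E4 astrocyte-like cells. Inside the gate it gave 4 UMIs in E3, in cells of other classes, and 0 in E4, which allows up to 0.158 CPM, and no ratio was formed. Endothelial-like cells held 12 of the 33 Lcn2 UMIs of the E3 library and 21 of the 34 of the E4 library. A small cluster led by the class II antigen-presentation genes Cd74 and H2-Aa (65 and 71 cells), which was given no cell type name, reached 37.6 and 11.2 CPM, but each value came from 1 cell.

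The same class II-led cluster held the highest Cd44, at 123 and 126 CPM. Cd44 (ENSMUSG00000005087, chr2:102811141-102901665) reached 16.2 and 12.0 CPM in meningeal-like cells and 13.8 and 15.5 CPM in ependymal-like cells, 2 groups whose intervals overlapped in both libraries. Astrocyte-like cells came next with 7.47 and 5.08 CPM. Thbs4 (ENSMUSG00000021702, chr13:92751590-92794818) had its highest level in astrocyte-like cells, at 15.1 and 10.4 CPM. In E3 the next values, 7.28 CPM in macrophage-like and 4.17 CPM in erythroid-like cells, each rested on 1 cell. In microglia-like, mural-like and meningeal-like cells and in the class II-led cluster no Thbs4 UMI was counted in either library.

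S100a6 (ENSMUSG00000001025, chr3:90612882-90624181) was highest in the class II-led cluster (1367 and 630 CPM) and in ependymal-like cells (668 and 636 CPM). Astrocyte-like cells gave 180 and 150 CPM, and microglia-like cells 4.73 and 5.57 CPM. Tanycyte-like cells, the glia that line the floor of the third ventricle, numbered only 13 and 24 and were left out of the order, but they had 3597 and 3070 CPM of S100a6, with a UMI in every cell. S100b (ENSMUSG00000033208, chr10:76253853-76261159), long used as an astrocyte marker, stood at 750 and 702 CPM in ependymal-like cells, above the 674 and 477 CPM of oligodendrocyte-like cells. Its level in astrocyte-like cells was 457 and 404 CPM, and that in meningeal-like cells 417 and 420 CPM, 2 groups that changed places between the libraries. Hopx (ENSMUSG00000059325, chr5:77086988-77115121) led in astrocyte-like cells with 258 and 229 CPM. Next came ependymal-like (174 and 114 CPM), oligodendrocyte-like (172 and 135 CPM) and choroid plexus-like cells (121 and 136 CPM), whose order differed between the libraries. Gfap, S100b, Cd44 and Hopx overlap genes on the opposite strand (Gm26668, Dip2a, Gm23731 and Hopxos), and none of the 10 overlaps a gene on its own strand. In both libraries 4 of the 10 genes (Gfap, Serpina3n, Thbs4 and Hopx) were therefore highest in astrocyte-like cells. Only Thbs4 and Hopx of them were so with cells of 1000 to 25000 UMIs and at most 15% mitochondrial UMIs. The share of all genes that are highest in this group was not computed, so the count has no background beside it.

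**Figure D1:**
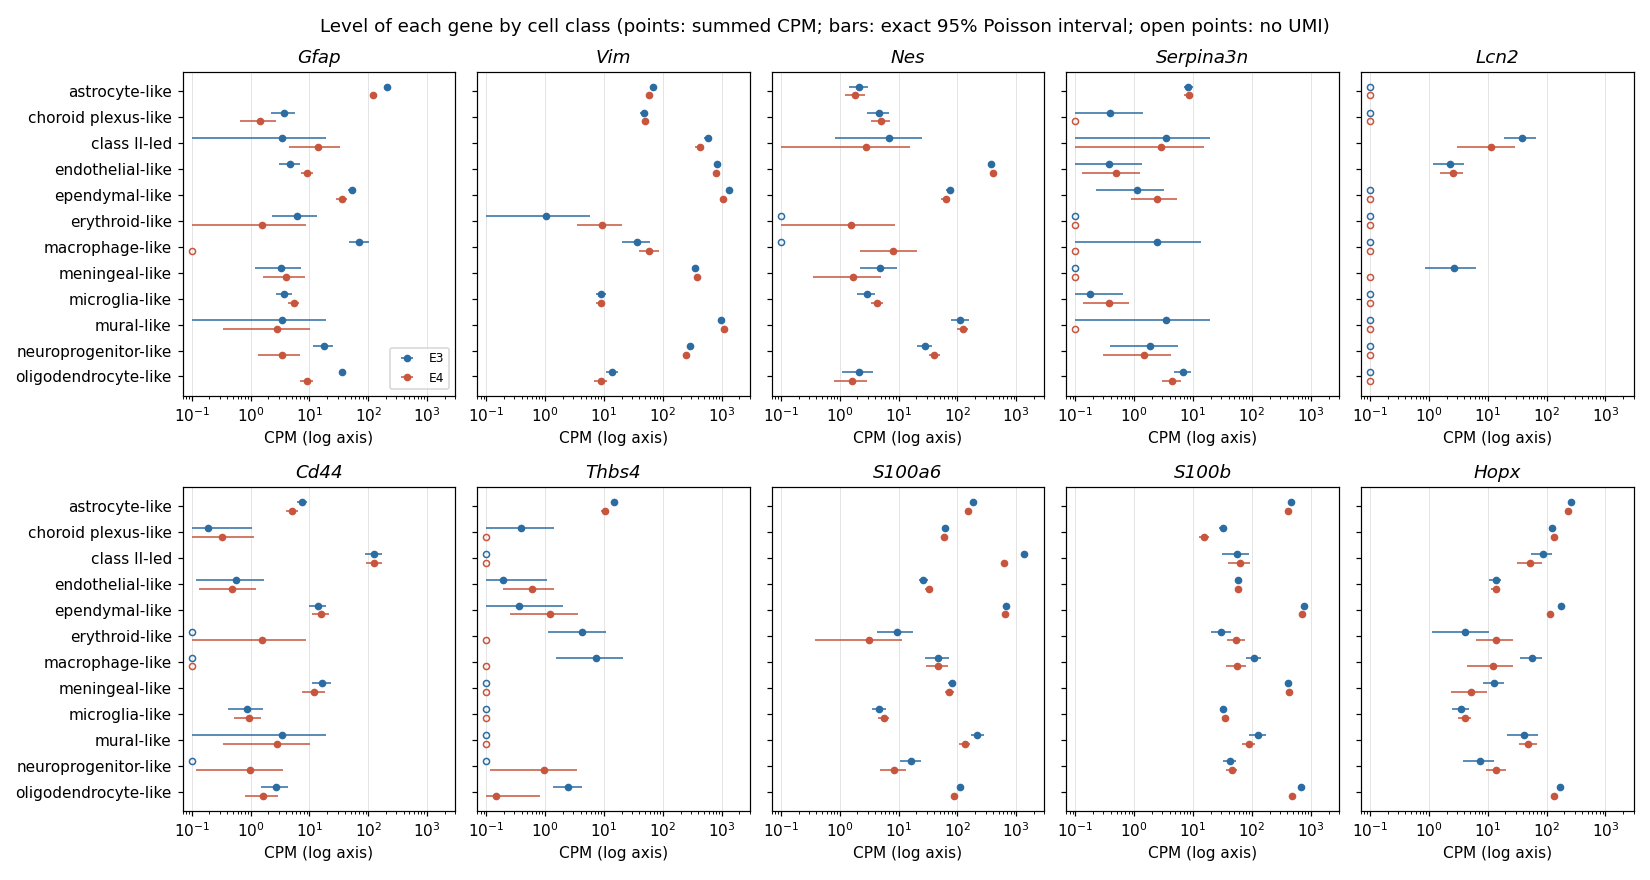
Summed CPM of each gene (log axis) in 12 cell groups of the E3 (blue) and E4 (red) library, with exact 95% Poisson intervals and open points for groups without a UMI; intervals that reach below 0.1 CPM end there. Gfap peaks in astrocyte-like cells (208 and 122 CPM), whereas Nes peaks in endothelial-like cells (367 and 400 CPM) and Vim in ependymal-like and mural-like cells.

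Within the gate, few cells carried most of the transcripts. A Gfap UMI was found in 15.97% of gated E3 cells and 14.1% of E4 cells, against 1.29% and 2.13% of microglia-like cells (median depth 3679 and 4281.5 UMIs), and in 9.002% and 7.77% after each gated cell was thinned to 2000 UMIs. The 31 E3 cells and 37 E4 cells with the most Gfap, 1% of the gate, held 54.9% and 56.1% of its UMIs. For Thbs4 this share was 77.3% and 82.7%, for Nes 62.3% and 61.0%, and for Vim 43.2% and 39.9%. S100b and Hopx were spread more widely, with 11.6% and 13.3%, and 15.4% and 15.2%, in the top 1%. After thinning, S100b was found in 54.6% and 50.6% of gated cells, Hopx in 25.3% and 22.1%, S100a6 in 22.6% and 20.2%, and Vim in 12.2% and 11.1%. A median of 1 of the 10 genes had a UMI in a thinned cell of either library.

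The gate was not pure. Of its cells, 87.6% in E3 and 87.7% in E4 were astrocyte-like, but 96 and 98 ependymal-like cells held 11.6% and 9.61% of its UMIs. As a result only 18.6% and 19.2% of the Vim UMIs of the gate, and 6.85% and 7.21% of its Nes UMIs, lay in astrocyte-like cells. This share was 48.8% and 51.6% for S100a6, 58.7% and 58.1% for Cd44 and 68.4% and 69.0% for S100b. It was 88.4% and 89.3% for Gfap, 89.1% and 93.5% for Thbs4, 83.5% and 85.7% for Hopx and 84.8% and 87.3% for Serpina3n. All 6 of 6 ependymal markers were counted in the gate, at a summed 1413 CPM in E3 and 1156 CPM in E4. All 6 of 6 oligodendrocyte markers summed to 1057 and 1210 CPM, and all 6 of 6 endothelial markers to 292 and 519 CPM. Ttr, a transcript of choroid plexus cells, was found in 84.7% and 85.2% of gated cells and in 82.7% and 86.1% of the others. The part of these cells and of free RNA in the differences below was not tested.

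Between genotypes, each of the 9 measured genes had a lower level in E4 than in E3 gated astrocytes, and Gfap had the lowest ratio. Lcn2 had too few UMIs to be compared. Gfap gave 2828 UMIs (167 CPM) in E3 and 1658 UMIs (87.3 CPM) in E4, a log2 ratio of -0.93 (-1.02 to -0.85), or 1.91-fold less. Of the 9 genes with at least 50 UMIs, 5 were at least 1.2-fold lower in E4 (Gfap, Vim, Cd44, Thbs4 and S100a6), and 9.99% of the 13839 genes tested were. At least 1.2-fold higher in E4 were 0 of the 9 and 11.6% of all genes. The median log2 ratio of the 9 was -0.35, beside 0.015 over all genes. No replicate stands behind these ratios, and no statistical test was run.

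Among the filament genes, Vim gave 260 and 204 CPM, a log2 ratio of -0.35 (-0.41 to -0.29). After thinning, the Vim ratio was -0.09, short of 1.2-fold. Nes gave 18.9 and 17.5 CPM, and the interval of its ratio (-0.34 to 0.12) included no difference. Of the matrix genes, Thbs4 gave 12.4 and 7.32 CPM (-0.77, -1.08 to -0.45) and Cd44 8.84 and 6.16 CPM (-0.52, -0.88 to -0.16). With thinned cells Cd44 was at -0.20, also short of 1.2-fold. Serpina3n, the measured acute-phase gene, did not differ beyond counting error, with 7.37 and 6.63 CPM and a ratio of -0.15 (-0.52 to 0.22). It was past 1.2-fold lower in 3 other settings, at -0.79 without cells that held markers of another class, -0.53 without C1q UMIs and -0.45 with thinned cells. Its sign turned in others, all within 1.2-fold. These were 0.13 with sub-clusters weighted alike, 0.03 with the mean over cells, 0.03 with all cells of astrocyte-like clusters and 0.06 without the Myoc-led sub-clusters described below.

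S100a6 gave 258 CPM in E3 and 197 CPM in E4, a log2 ratio of -0.38 (-0.45 to -0.32), and -0.23 with thinned cells. S100b gave 469 and 421 CPM (-0.16, -0.20 to -0.11) and Hopx 224 and 193 CPM (-0.22, -0.28 to -0.15), both under 1.2-fold, although Hopx passed it at -0.30 in gated cells without any UMI of C1qa, C1qb and C1qc. With the gated cells of astrocyte-like clusters alone, an alternative added after the data were seen, the ratios were -0.93 for Gfap, -0.31 for Vim and -0.32 for S100a6, and with all cells of those clusters, gated or not, -0.77, -0.25 and -0.26.

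**Figure D2:**
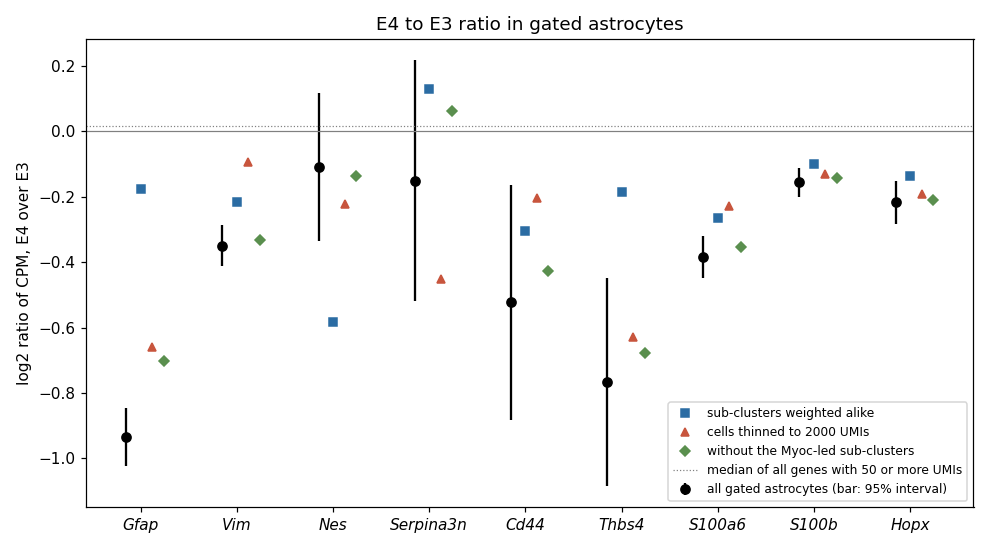
Log2 ratio of E4 to E3 CPM in gated astrocytes for the 9 genes with at least 50 UMIs: black points are all gated cells with 95% counting intervals, blue squares weight the sub-clusters alike, red triangles use cells thinned to 2000 UMIs green diamonds leave out the Myoc-led sub-clusters, and the dotted line is the median of all genes (0.015). Gfap moves from -0.93 to -0.18 when sub-clusters are weighted alike.

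Gfap was also compared inside kinds of gated cells. The gated cells were divided into 26 sub-clusters without use of the 10 genes, 12 of them with at least 50 cells in each library. The Gfap level was above that of E3 in 9 of these 12 sub-clusters and below it in 3, but the interval of the ratio lay above 0 in 0 of them and below 0 in 1, number 6. When each sub-cluster was given the same weight in both libraries, the Gfap log2 ratio was -0.18, that of Thbs4 -0.19 and that of Vim -0.22, all short of 1.2-fold, and Cd44 (-0.31), S100a6 (-0.26) and Nes (-0.58) were then the genes past it. With 1 library per genotype, shares of cell kinds and genotype cannot be told apart from the suspension.

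The densest Gfap was found in 2 small sub-clusters led by Myoc, which encodes the secreted protein myocilin. Together they held 40 E3 cells (1.29% of the gate, 0.925% to 1.76%) and 23 E4 cells (0.624%), at 4485 and 4863 CPM of Gfap, a log2 ratio of 0.12 (-0.01 to 0.25). Every cell of both had Gfap, with up to 175 UMIs in a cell of E3. These 63 cells held 52.1% of the Gfap UMIs of the gate in E3 and 43.1% in E4. They also had 682 and 770 CPM of Vim, 801 and 742 CPM of S100a6, 97.5 and 109 CPM of Serpina3n and 88.3 and 102 CPM of Cd44, and Nes at 3.05 and 20.4 CPM (1 and 3 UMIs). Outside them Serpina3n stood at 5.59 and 5.84 CPM and Cd44 at 7.27 and 5.41 CPM, so 25.6% of Serpina3n UMIs in E3 and 12.7% in E4 came from the Myoc-led cells. Without these sub-clusters, a choice made after the data were seen, Gfap gave 81.5 CPM in E3 and 50.1 CPM in E4, with a log2 ratio of -0.70 (-0.82 to -0.58).

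Of the larger sub-clusters, number 6, led by Ass1 and Gldc, held 238 E3 and 190 E4 cells and had the highest Thbs4 and Hopx of the 12 in both libraries. Its Gfap was 374 and 264 CPM, a log2 ratio of -0.50 (-0.73 to -0.28), its Hopx 571 and 543 CPM, and its S100a6 372 and 422 CPM. With 113 and 102 CPM of Thbs4 it held 70.1% and 69.8% of the Thbs4 UMIs of the gate. Number 11 (90 and 53 cells, led by Bc1 and Gria1) had 365 and 418 CPM of Gfap, above number 6 in E4, but only 1.55 and 8.04 CPM of Thbs4 and 29.5 and 50.9 CPM of Hopx, and none of its cells was telencephalic by the markers used below. In the most numerous sub-cluster, number 1 with 605 and 796 cells, Gfap was at 21.2 and 22.5 CPM. Sub-cluster 12 (53 and 60 cells) was ependymal-like and had the highest Vim, Nes and S100a6 of the 12, at 1556 and 1180, 95.5 and 75.4, and 1323 and 939 CPM. Sub-cluster 14, oligodendrocyte-like, gave 159 Gfap UMIs in 37 E3 cells and 13 in 58 E4 cells, 52 of the 159 from 1 cell.

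**Figure D3:**
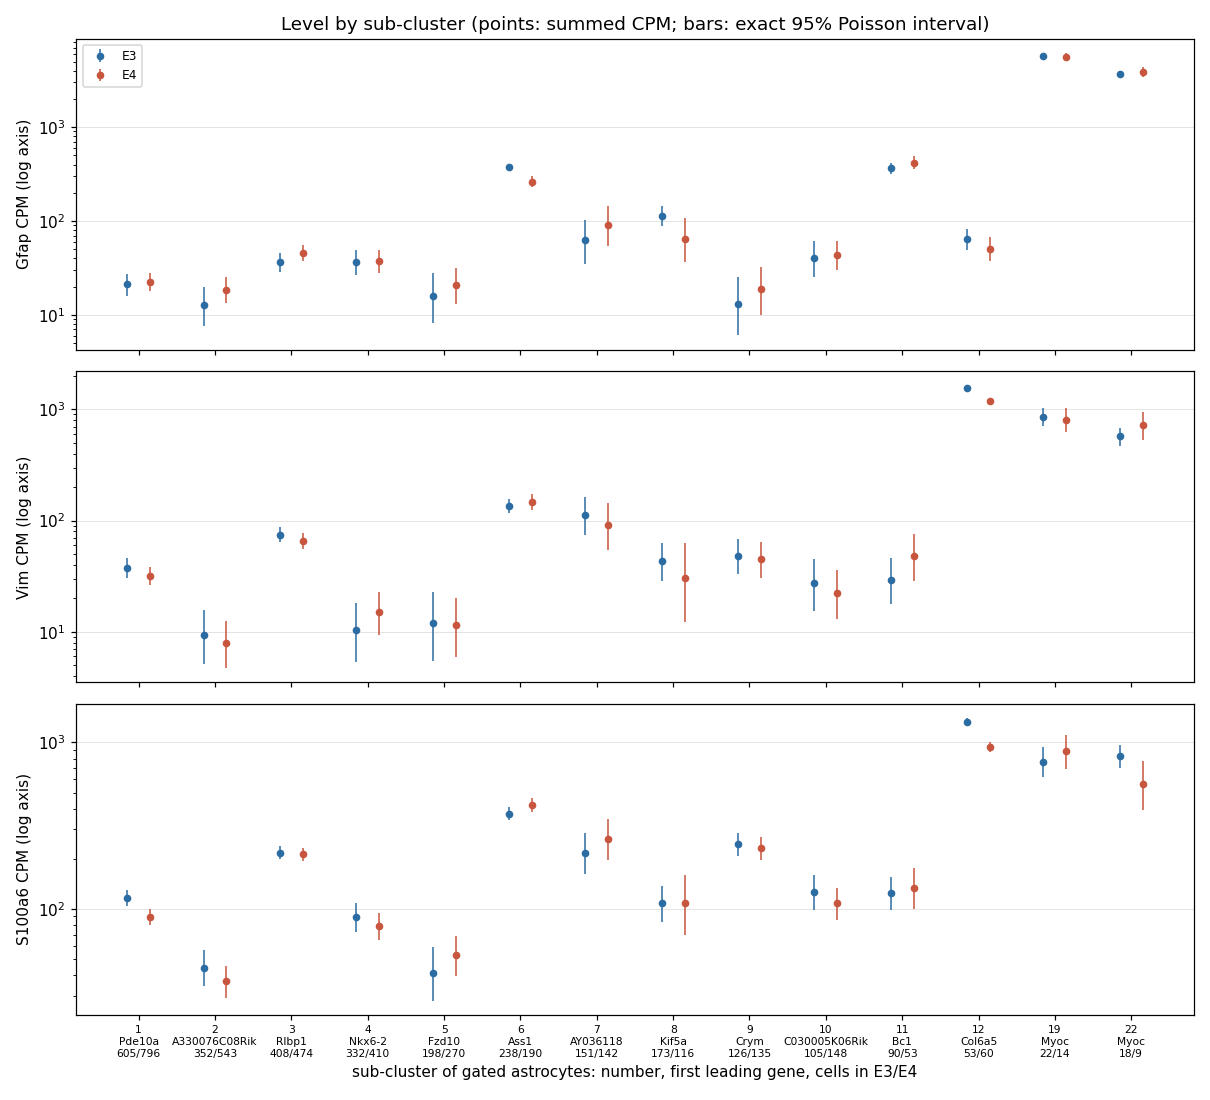
Summed CPM (log axes) of Gfap, Vim and S100a6 in the 12 sub-clusters of gated astrocytes with at least 50 cells per library and in both Myoc-led sub-clusters (19 and 22), for E3 (blue) and E4 (red) with exact 95% Poisson intervals. Gfap in E4 lies above E3 in 9 of the 12 larger sub-clusters, in 0 of them with an interval of the ratio above 0, and the Myoc-led ones reach at least 3701 CPM in both libraries.

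To see which of the genes were found in the same cells, gated cells were thinned to 2000 UMIs, which left out 227 E3 and 276 E4 cells, and grouped by their Gfap UMIs. Most cells had none, 91.0% in E3 and 92.2% in E4. Cells with 1 to 2 Gfap UMIs made up 6.63% and 6.81%, those with 3 to 9 UMIs 1.88% (54 cells) and 0.645% (22 cells), and those with 10 or more 0.488% (14 cells) and 0.323% (11 cells). The libraries were thus alike at 1 to 2 UMIs and furthest apart at 3 to 9. Vim stood at 95.7, 129, 352 and 750 CPM over these 4 groups in E3 and at 90.5, 153, 318 and 1045 CPM in E4. S100a6 stood at 159, 182, 565 and 1071 CPM in E3 and at 137, 198, 545 and 1364 CPM in E4. Both thus lay higher in each group with more Gfap.

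Thbs4 behaved otherwise. It reached 157 CPM in E3 and 386 CPM in E4 in cells with 3 to 9 Gfap UMIs, from 6.33 and 5.57 CPM in cells without Gfap, and was not counted in the 14 and 11 cells with 10 or more. A count of 0 there allows up to 107 CPM in E3 and 136 CPM in E4. Nes was not counted in any cell with 3 or more Gfap UMIs. In the cells with 10 or more, this 0 allows the same 107 and 136 CPM. These limits lie above the 18.9 and 17.5 CPM of Nes in the whole gate, so the 0 does not set those cells apart. S100b was at 438 and 405 CPM without Gfap, at 455 and 405 CPM with 1 to 2 Gfap UMIs, at 537 and 341 CPM with 3 to 9, and at 1000.0 and 864 CPM with 10 or more. Over single cells the correlation of log counts was weak, 0.19 and 0.14 for Gfap with Vim over 2866 and 3409 cells, which share their library and their depth.

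**Figure D4:**
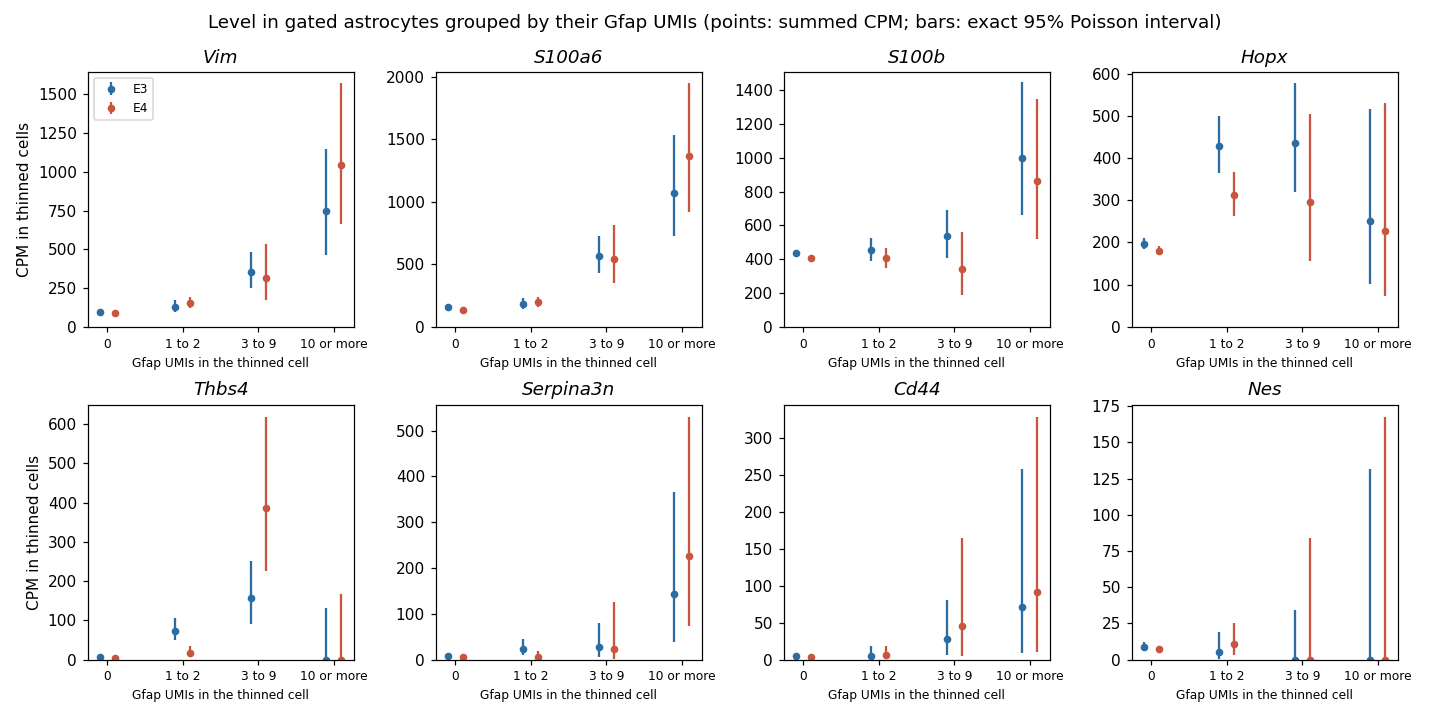
CPM of 8 of the genes in gated astrocytes thinned to 2000 UMIs and grouped by their Gfap UMIs (0, 1 to 2, 3 to 9, 10 or more), for E3 (blue) and E4 (red), with exact 95% Poisson intervals. Vim and S100a6 lie higher with more Gfap, and Thbs4 peaks at 3 to 9 Gfap UMIs (157 and 386 CPM).

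The genes also differed by brain region of the gated astrocytes. Gated cells with at least 2 UMIs of a list of telencephalic factors that includes Lhx2, Emx2 and Fezf2, and no more than 1 for every 2 of these of the non-telencephalic genes Irx1, Irx2, Irx3, Irx5, Agt and Slc6a11, were called telencephalic (577 and 606 cells), and the reverse non-telencephalic (1667 and 2077 cells). At least 2-fold higher in telencephalic cells in both libraries were 2 of 9 genes, Thbs4 and Hopx, and 1.24% of all 13099 genes tested. At least 2-fold higher in non-telencephalic cells was 1 of the 9, Serpina3n, and 3.9% of all genes.

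Thbs4 gave 31.3 CPM in telencephalic and 3.03 CPM in non-telencephalic E3 cells, and 17.9 and 2.47 CPM in E4, which is 10.3-fold and 7.27-fold. Hopx gave 353 against 154 CPM in E3 and 342 against 106 CPM in E4, or 2.28-fold and 3.23-fold. S100a6 was near the limit with 2.05-fold (371 against 181 CPM) in E3 and 1.95-fold (258 against 132 CPM) in E4. These 3 genes were higher in telencephalic cells in both libraries. For S100a6, however, only 48.8% and 51.6% of the UMIs of the gate lay in astrocyte-like cells. Vim had no shared direction in all gated cells, with telencephalic over non-telencephalic log2 ratios of -0.493 (E3) and 0.116 (E4). Vim was higher in telencephalic cells of both libraries after thinning to 2000 UMIs (0.615 and 0.639). It was past 2-fold without cells that held markers of another class (1.445 and 1.203). With regions from 5 or more UMIs of one list and none of the other, Vim was within 1.2-fold (-0.008 and 0.198).

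Serpina3n went the other way, with 11.4 CPM in non-telencephalic and 1.24 CPM in telencephalic E3 cells, and 9.47 and 2.47 CPM in E4. Only 4 and 8 Serpina3n UMIs lay in the telencephalic cells. With a stricter definition of region (5 or more UMIs of one list and none of the other) no gene was 2-fold higher in non-telencephalic cells in both libraries, and Serpina3n had a ratio in E3 only. Gfap was 1.85-fold and 1.38-fold higher in non-telencephalic cells, and this direction turned in 1 library under each of 2 other definitions: to a log2 ratio of 0.50 towards telencephalic cells in E3 with the stricter regions, and to 1.13 in E4 without cells that held markers of another class. S100b was 1.203-fold and 1.14-fold higher in non-telencephalic cells. Within both regions Gfap stayed lower in E4, at a log2 ratio of -0.58 (-0.82 to -0.34) in telencephalic cells and -1.001 (-1.11 to -0.89) in non-telencephalic cells.

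**Figure D5:**
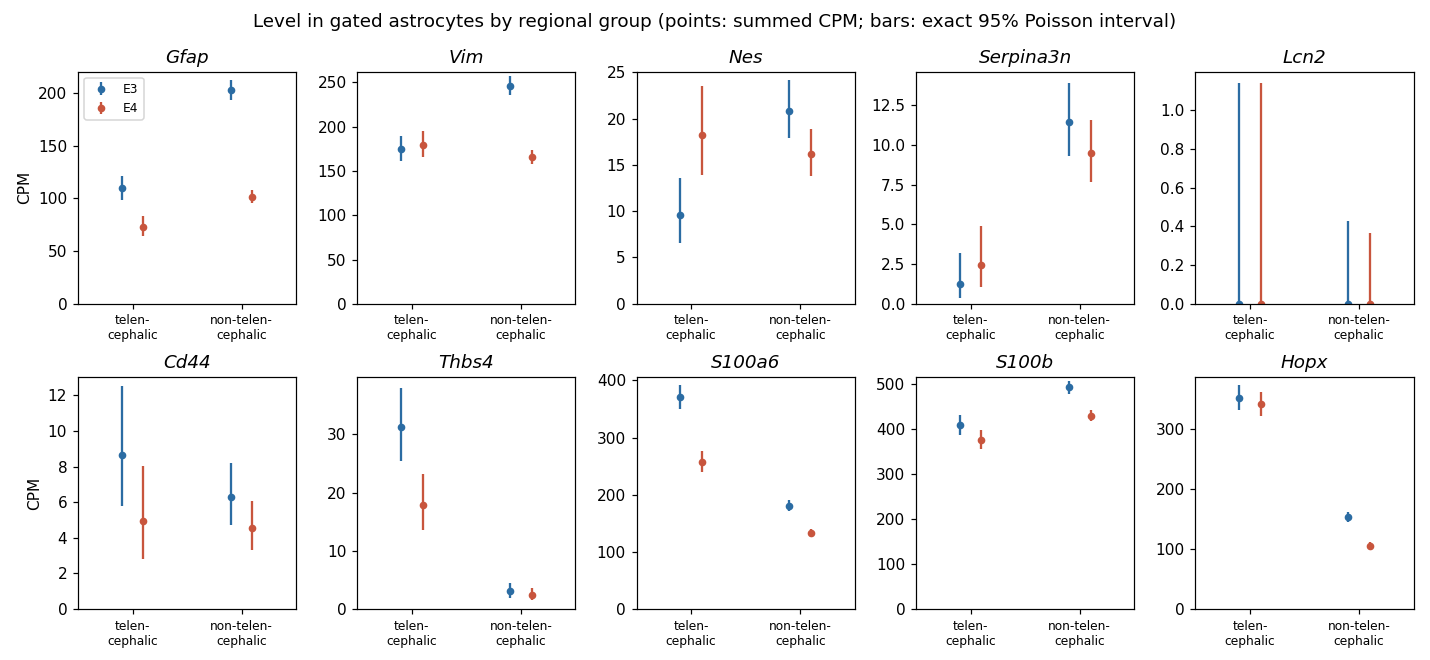
Summed CPM of the 10 genes in telencephalic and non-telencephalic gated astrocytes of E3 (blue) and E4 (red), with exact 95% Poisson intervals. Thbs4, S100a6 and Hopx lie higher in telencephalic cells in both libraries, and Serpina3n in non-telencephalic cells.

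Genes with the most similar pattern over the 12 sub-clusters were sought among 8810 genes for the 5 members with at least 500 UMIs per library, by the lower of the 2 libraries' Pearson correlations of log2(CPM + 10). For Gfap these were Mlc1 (0.89 in E3, 0.90 in E4), Pygb and Cpe. For Vim they were Ptma (0.98 and 0.97), S100a6 (0.95 in both) and Cnn3. For S100a6 they were Clic1 (0.96 and 0.97), Vim and Sdcbp, so Vim and S100a6 named each other, and both peak in the ependymal-like sub-cluster. For Hopx they included Lhx2 (0.96 in both), a telencephalic factor, and Gldc. For S100b they were the mitochondrial transcripts mt-Co1 (0.88 and 0.89), mt-Nd4 and mt-Nd5. These values describe 12 points that share libraries and cell composition.

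Related gene lists were read beside the members in the same gated cells, as counts past 1.2-fold among genes with at least 50 UMIs. Of 7 intermediate filament and partner genes, 2 were lower in E4 (Gfap and Vim) and 1 higher, Des, the desmin of muscle-type cells, with 10 and 41 UMIs (log2 ratio 1.87, 0.85 to 3.04). Synm, a filament partner of vimentin, gave 48.8 and 50.2 CPM and Plec, which links filaments to other structures, 59.1 and 52.7 CPM. Of 11 pan-reactive genes, which share Gfap, Vim, Serpina3n and Cd44 with the members, 6 were lower and 1 higher, with a median of -0.35. Among the lower ones was the chemokine Cxcl10, with 61 UMIs in E3 and 12 in E4 (-2.51, -3.54 to -1.60). The heat-shock gene Hspb1 of the same list was within 1.2-fold, at 79.0 and 74.8 CPM, as was Cp, which encodes ceruloplasmin, at 17.8 and 16.3 CPM.

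The neuroinflammatory (A1) list did not share the direction, with 2 of 11 genes higher and 3 lower and a median of 0.07. H2-D1, a class I antigen-presentation gene of that list, gave 53.9 and 62.8 CPM and Srgn, a proteoglycan core protein, 21.0 and 27.2 CPM. Of 5 measured injury-type (A2) genes, 1 was higher and 1 lower (median -0.07), with Tm4sf1 at 123 and 128 CPM and Cd109 at 16.4 and 12.4 CPM. Of 12 disease-associated astrocyte genes, which share Gfap, Vim and Serpina3n with the members, 1 was higher and 4 were lower (median -0.13). Gfap and Vim were among the 4 lower ones. Osmr, the higher one, was also the higher one of the pan-reactive list, so these lists are not separate counts. The lysosomal proteases Ctsd, Ctsl and Ctsb stayed at 313 and 317, 357 and 367, and 276 and 264 CPM.

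Among 8 measured S100 genes, 3 were lower in E4 (S100a4, S100a6 and S100a11), 0 were higher and the median was -0.16. S100a1 gave 536 and 488 CPM and S100a13 334 and 300 CPM. Of the 4 thrombospondins, Thbs1 (16.5 and 12.4 CPM) and Thbs4 were lower, and Thbs2 and Thbs3 were within 1.2-fold. The JAK-STAT3 signalling genes, known to act on Gfap, had 2 of 7 higher (Socs3 and Osmr), 0 lower and a median of 0.12, with Stat3 at 46.7 and 50.7 CPM and the receptor Lifr at 69.3 and 80.7 CPM. Homeostatic astrocyte genes were close to level, with 1 of 10 higher (Gjb6), 0 lower and a median of 0.05. The glutamate transporter Slc1a2 stood at 5477 and 5537 CPM and glutamine synthetase Glul at 2149 and 2133 CPM. Immediate-early genes, which respond to activity and also to tissue dissociation, had 5 of 10 higher and 0 lower with a median of 0.35, and Fos gave 36.3 and 58.6 CPM (log2 ratio 0.69, 0.55 to 0.84). Their part in the other differences was not tested.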

How the data were processed

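The authors pooled 3 hemispheres per genotype and made 10x 3′ libraries. The authors deposited unnormalized UMI counts for each gene and barcode, made with Cell Ranger (6.1.2 for E3, 6.1.1 for E4, per the file headers) on mm10 per the labels, and depths were read from them. No column of another sample was present (0).

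After the study, barcodes were kept at 50 to 50000 UMIs if no more than 30% were mitochondrial. CPM, shares and ratios were computed here from the counts in Python 3.11.15 with scipy 1.17.1. Levels have exact Poisson intervals, shares exact binomial intervals, and ratios the interval of the binomial split of the counts. Of these, only the ratios and their intervals were tested on simulated data. The simulated counts were independent Poisson draws, the form that the intervals assume. The intervals are therefore untested for genes whose UMIs lie mostly in few cells. UMI counts of 0 were given a limit of 3 counts. Both libraries were clustered together with scanpy 1.11.5 and leidenalg 0.10.2 (2000 variable genes without the members, 20 components, 15 neighbours, resolution 1). A class name needed 3 markers at least 2-fold higher and found in 20% of the cells. Clusters were called mixed where another class had at least 3 such markers and 75% of the best class's share. The same held where the 10 leading genes held more markers of another class. Clusters of low depth without a marker of their class among the leading genes stayed unnamed. The class II-led cluster was called by its genes after it was seen. Doublets were kept in the main analysis; Scrublet called 4.69% and 6.25% for an alternative. All members are named, with the abundant (up to 4) or 1.5-fold different genes of the related lists and the 3 most alike genes. A gene of the telencephalic list that the rule also named is not reported here. Members and lists were chosen with earlier results of these data known. Positions are from GENCODE vM21 on GRCm38.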

Additional observations from a re-analysis of the deposited data

Results flagged for a closer look

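The ratios of Vim, Nes and Serpina3n between genotypes had opposite signs in the 2 regional groups of gated astrocytes. The log2 ratio of E4 to E3 was 0.039 (-0.13 to 0.21) in telencephalic and -0.57 (-0.66 to -0.48) in non-telencephalic cells for Vim. It was 0.92 (0.27 to 1.60) and -0.37 (-0.68 to -0.05) for Nes, and 0.996 (-0.90 to 3.18) and -0.27 (-0.69 to 0.15) for Serpina3n. The telencephalic interval of Vim and both intervals of Serpina3n included 0, so opposite movement beyond counting error was seen for Nes only. The telencephalic counts behind them were 565 and 582 UMIs for Vim, 31 and 59 for Nes, and 4 and 8 for Serpina3n. The telencephalic Nes UMIs lay in 20 cells of each library, with 15 in 1 cell of E4. Only 6.85% and 7.21% of the Nes UMIs of the gate lay in astrocyte-like cells, so the Nes ratios mostly describe other cells of the gate. These differences between regions were not tested, since each genotype has 1 library.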

How the results depend on the processing

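With 1 library per genotype, no paired analysis was possible because no test was run, and no replicate could be left out. Of 117 recomputed ratios of single genes in gated astrocytes, 83 stayed within the counting interval of the reported value and 34 moved outside it, and none of the 5 genes past 1.2-fold changed its direction. Nes, not among them, was past 1.2-fold lower at -0.58 with sub-clusters weighted alike and -0.39 without called doublets, and higher at 0.37 with the gate at 5 or more UMIs. Gfap ranged from -0.98 to -0.18 and Vim from -0.53 to -0.09 (log2). The 5 genes at least 1.2-fold lower in E4 became 3 with cells thinned to 2000 UMIs (Gfap, Serpina3n and Thbs4), 3 with sub-clusters weighted alike (Nes, Cd44 and S100a6) and 3 with the mean over cells (Gfap, Cd44 and Thbs4). With the gate at 5 or more UMIs, 1 gene (Nes) was at least 1.2-fold higher in E4, and without any C1q UMI 7 were lower, Serpina3n and Hopx added. Leaving out cells with markers of another class removed 58.5% of E3 and 56.3% of E4 gated cells, 38.2% and 40.9% on the choroid plexus list, and left 6 genes lower. The 4 genes highest in astrocyte-like cells became 2 (Thbs4 and Hopx) once cells were limited to 15% mitochondrial and 1000 to 25000 total UMIs. With these limits a cluster of 25 E3 and 34 E4 cells, with Myoc and Gfap among its leading genes, was named tanycyte-like. The count of genes 2-fold higher in non-telencephalic cells became 0 with the stricter regions. In telencephalic cells this count was 3 rather than 2 in each other setting tried. The causes were not tested. In 4 of 5 other clusterings Cd44 and Lcn2 were highest in macrophage-like cells. There the cluster led by Cd74 and class II genes was itself named macrophage-like, and no class II-led cluster was set apart. Counts under about 150 UMIs (Serpina3n, Cd44, Thbs4) limit how finely those genes can be compared.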

Other observations

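Gfap was also counted in tanycyte-like cells, a group too small for the main order. In E3 the 13 tanycyte-like cells gave 8 Gfap UMIs (51.2 CPM) and in E4 the 24 cells gave 64 UMIs (378 CPM), but 33 of the 64 came from 1 cell. Cd44 in these cells was at 96.0 and 47.2 CPM and Serpina3n at 38.4 and 41.3 CPM, on 15 and 8, and 6 and 7 UMIs.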
